A study of Mus musculus with 20 samples.

Results

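The SLC15 peptide transporters were described through 4 genes, Slc15a2, Slc15a1, Slc15a3 and Slc15a4, of 19607 genes that the array names by probe sets carrying a single symbol. Expression was measured in 20 mouse samples of the C57BL/6 strain, 10 of thymocytes (immature T cells) and 10 of thymic tumours, with 1 array each. The genes were selected on the measured values of Slc15a2, which lay either high or near the bottom of the scale on most arrays and in between on some ENU tumours. Its levels and differences are therefore given as a description, without a test, and tests are given for the other members. They are covered by 58 probe sets, 23 for Slc15a1, 18 for Slc15a2, 9 for Slc15a3 and 8 for Slc15a4.

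The question of the series is how gene expression shifts without Gfi1, a transcriptional repressor with zinc fingers, after irradiation and in tumours. Untreated thymocytes had 2 Gfi1 KO and 2 WT arrays, and irradiated thymocytes had 3 KO and 3 WT arrays. The sources used here give neither the dose and time of irradiation nor the allele of these KO mice. ENU tumours (3 KO and 3 WT arrays) arose after injection of the alkylating mutagen ENU. Notch tumours (2 KO and 2 WT arrays) arose after ENU in mice that also carried a Notch1 transgene, labelled Notch1-CT. All tumour mice had a floxed Gfi1 gene, and the KO tumours also carried Mx1-Cre, a recombinase that acts in interferon-responsive cells. Per the labels, pIpC, an inducer of interferon, was injected after a tumour had been seen, and cells were collected weeks after that. The labels do not say whether samples within a group are different mice, and p-values then measure only the spread between these samples, which may be technical.

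The SLC15 family carries short peptides across membranes together with protons. PEPT1, the product of Slc15a1, is the low-affinity, high-capacity carrier of the intestinal brush border, and PEPT2, the product of Slc15a2, is the high-affinity carrier of the kidney tubule, also found in brain and lung. PHT2 (Slc15a3) and PHT1 (Slc15a4) sit in endolysosomes of immune cells, carry histidine as well as peptides, and are known to help bacterial peptide fragments reach the sensors NOD1 and NOD2. PHT1 also holds the adaptor TASL at endolysosomes, which links Toll-like receptors there to the factor IRF5.

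In RefSeq assembly GRCm38.p6, Slc15a2 lies at chr16:36750161-36785158, Slc15a1 at chr14:121459621-121505254, Slc15a3 at chr19:10842544-10857915 and Slc15a4 at chr5:127594545-127633292. All of them are protein coding and no pair shares a chromosome. The 250 bases before the start site that RefSeq gives are shown for Slc15a2 and Slc15a1, the members whose level differed most between KO and WT thymocytes. Both are written 5′ to 3′ on the minus strand, chr16:36784963-36785212 for Slc15a2 and chr14:121505255-121505504 for Slc15a1. The Slc15a2 window lies mostly inside the annotated gene span. Capitals mark AATC, the core of the motif that GFI1 binds, and its reverse complement GATT.
Slc15a2: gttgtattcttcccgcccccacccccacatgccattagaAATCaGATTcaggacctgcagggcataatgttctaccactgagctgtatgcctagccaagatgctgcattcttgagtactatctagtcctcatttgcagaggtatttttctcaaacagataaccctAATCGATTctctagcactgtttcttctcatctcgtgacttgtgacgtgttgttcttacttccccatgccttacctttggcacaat
Slc15a1: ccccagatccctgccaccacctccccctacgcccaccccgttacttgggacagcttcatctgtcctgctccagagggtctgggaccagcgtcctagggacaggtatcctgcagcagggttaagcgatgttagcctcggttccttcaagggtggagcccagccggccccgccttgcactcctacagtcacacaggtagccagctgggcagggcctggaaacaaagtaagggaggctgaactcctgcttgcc

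The Slc15a2 window held 4 matches to AATC counted on both strands, and the Slc15a1 window held 0. Of 32817 promoter windows of this length, 69.0% had at least 1 match and 7.0% had as many as Slc15a2. The longer form AAATCA was found 1 time in the Slc15a2 window, overlapping an AATC match, and in 12.4% of all windows. The Slc15a4 window, chr5:127617393-127617642, held 2 AATC matches and lies wholly inside the annotated gene span. Slc15a3 was not matched. These are letter matches only and say nothing of binding.

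The labels and the arrays were compared first. Gfi1 lies at chr5:107716655-107725805 and has 8 probe sets, numbered in the order of their array IDs. In untreated KO thymocytes, probe set 2 had 5.62 and 5.67 log2 signal, against 12.07 and 11.83 in WT. In irradiated KO thymocytes the same probe set had 12.72, 12.72 and 12.74, against 11.56, 11.61 and 11.34 in WT. There the low values were those of probe sets 4 to 8, such as probe set 7 with 7.25, 7.37 and 6.91 in KO, against 9.33, 9.65 and 9.36 in WT. The thymocyte KO groups thus do not share 1 pattern of loss across the gene. In KO Notch tumours probe set 2 had 6.31 and 7.10, against 11.43 and 11.01 in WT. In ENU tumours labelled KO it had 11.01, 10.70 and 10.85, against 11.22, 11.56 and 10.58 in WT. Over all 8 probe sets the difference between labelled KO and WT ENU tumours ran from -0.65 to 0.11. In 3 of them every KO array lay below every WT array, and 0 were called lower. The arrays thus do not show, in any probe set, a loss of the size seen in the other KO groups.

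Thymocyte markers were high on 19 arrays, with a mean log2 signal over 14 genes from 10.7 to 12.8. The array KO Notch tumour 2 stood apart, with a thymocyte marker mean of 9.04, a B-cell marker mean of 12.6 over 10 genes (7.43 to 9.35 on the other 19 arrays), Cd79a at 13.8 and Cd3e at 12.4. KO ENU tumour 1 had the highest macrophage and dendritic cell marker mean, 11.2 over 20 genes, against 8.04 to 10.5 on the other 19 arrays. Differences between KO and WT tumours are therefore also given without these arrays, a choice made after their markers were seen. Markers of intestinal and renal epithelium, where Slc15a1 and Slc15a2 are best known, had a mean between 7.23 and 7.67 on all 20 arrays, and 0 of the 4 that were tested passed in KO against WT, untreated or irradiated. In bulk samples fewer cells of a type and less RNA per cell cannot be told apart. Array medians over all probe sets lay between 9.08 and 9.27.

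**Figure D1:**
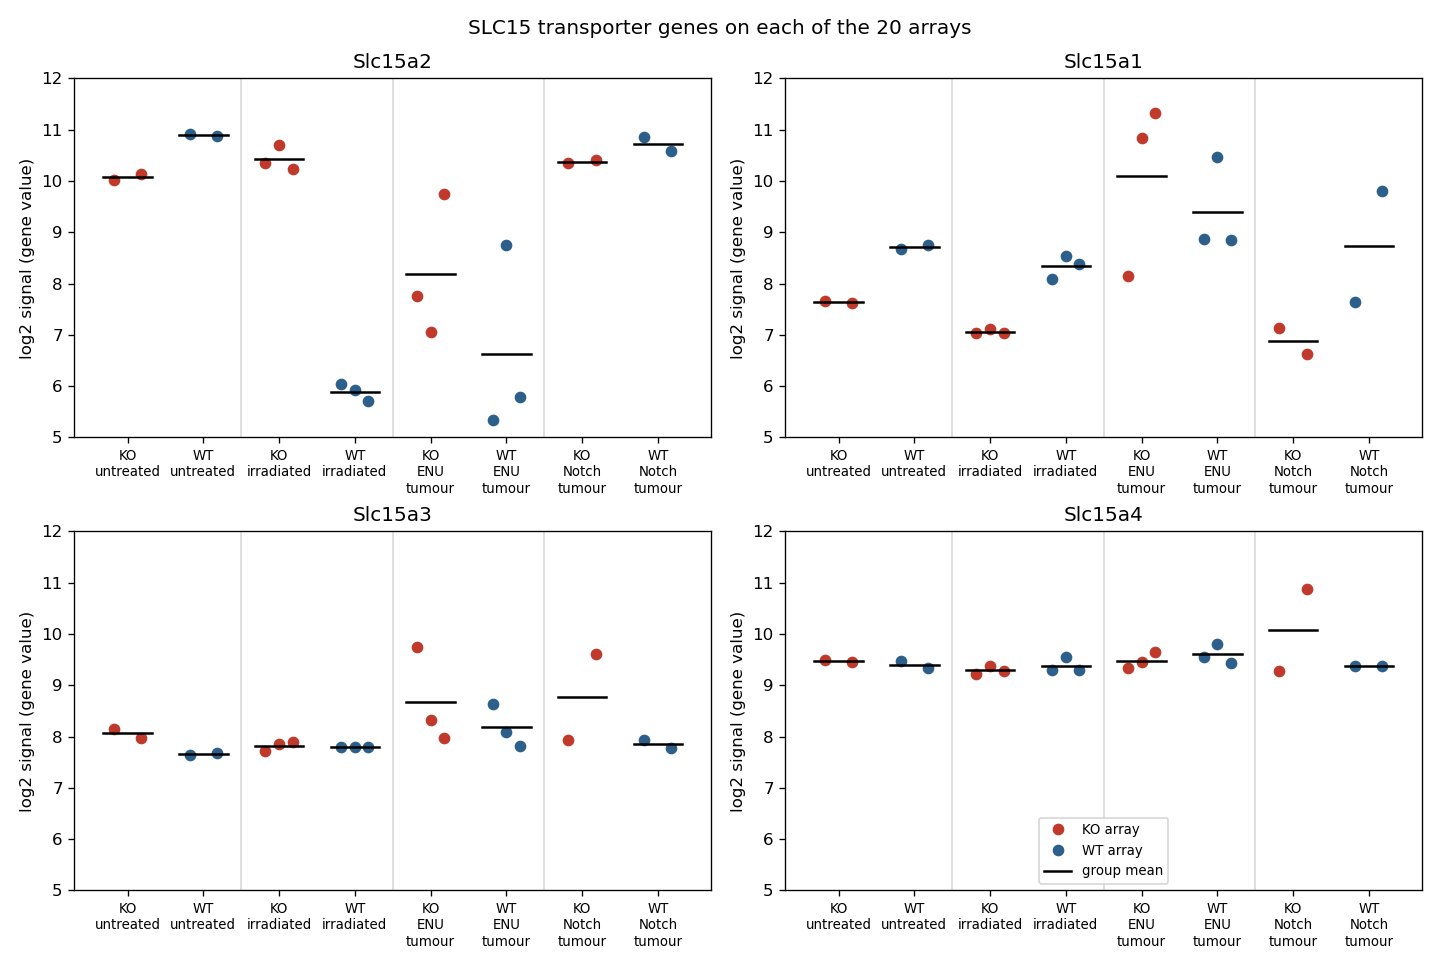
Log2 signal of the SLC15 genes (vertical axes, gene values) on the 20 arrays in 8 groups (horizontal axes), with KO in red, WT in blue and a black line at the group mean. Slc15a2 sits near 6 in WT irradiated thymocytes and above 10 in KO irradiated thymocytes, Slc15a1 is lower in KO thymocytes than in WT in both settings, and Slc15a4 leaves its narrow range on 1 array, KO Notch tumour 2.

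Slc15a2, the high-affinity peptide carrier, was far higher in KO than in WT irradiated thymocytes, and slightly lower in KO than in WT untreated ones. Its gene value was 10.36, 10.71 and 10.24 log2 signal in irradiated KO thymocytes, against 6.05, 5.92 and 5.71 in irradiated WT thymocytes. All 3 KO arrays lay far above all 3 WT arrays, by 4.54 in deposited log2 signal. None of the 3 WT arrays lay above the 40th percentile of all genes on the array, the filter on low values used here, so this is a difference between signals near the bottom and near the top of the scale and no exact fold of RNA. In untreated thymocytes the values were 10.03 and 10.14 in KO, against 10.92 and 10.89 in WT. Here KO was the lower genotype, with a difference of -0.82 and no overlap of arrays.

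Irradiated WT thymocytes thus differed from untreated WT thymocytes by -5.01 in signal, with the same limit at the low end, and irradiated KO thymocytes lay above untreated KO thymocytes by 0.35. In WT, irradiated arrays ranked between percentiles 4.59 and 6.32 of all genes on their array, against 90.2 and 90.6 in untreated WT. In KO, irradiated arrays ranked between percentiles 82.8 and 88.9, against 77.8 and 79.4 in untreated KO. The irradiation response differed between KO and WT by 5.36 in signal, without a test and with the irradiated WT values near the bottom of the scale. The untreated and irradiated groups also differ in the Gfi1 probe sets that are low in KO, and the part of that in the Slc15a2 values was not tested. The mean of 11 granulocyte markers also fell with irradiation in WT and not in KO. It was 6.88 to 6.96 in irradiated KO and 6.74 to 6.80 in untreated KO. In WT it was 7.80 to 7.89 irradiated against 9.18 to 9.36 untreated. Among irradiated thymocytes these markers were thus lower in KO, where Slc15a2 was higher. Markers of macrophages, B cells and NK cells fell with irradiation in both genotypes, as counted further below. The part of any of these markers in the Slc15a2 values was not tested.

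In the tumours, Slc15a2 was high in every Notch tumour and spread widely among ENU tumours. Notch tumours had 10.34 and 10.41 in KO, against 10.86 and 10.59 in WT. ENU tumours had 7.76, 7.05 and 9.74 in those labelled KO, against 5.34, 8.75 and 5.79 in WT. The difference of 1.56 between labelled KO and WT ENU tumours is smaller than the range within either group, and the arrays overlap. Without KO ENU tumour 1 it was 1.77 (0.78 without KO ENU tumour 3 and 2.62 without WT ENU tumour 2), and the Notch difference of -0.35 was -0.38 without KO Notch tumour 2. WT Notch tumours lay above WT ENU tumours by 4.10 in signal, with no overlap. WT ENU tumours lay below WT untreated thymocytes, with a difference of -4.28 and no overlap. Of the WT ENU arrays 1 of 3 lay above the filter, so these sizes are no exact folds either.

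Ordered by group mean, Slc15a2 was highest in WT untreated thymocytes (10.91 ± 0.03, SD, n = 2), followed by WT Notch tumours (10.73 ± 0.19, n = 2), KO irradiated thymocytes (10.43 ± 0.25, n = 3), KO Notch tumours (10.38 ± 0.05, n = 2) and KO untreated thymocytes (10.08 ± 0.08, n = 2). Below them came labelled KO ENU tumours (8.18 ± 1.40, n = 3), WT ENU tumours (6.63 ± 1.85, n = 3) and WT irradiated thymocytes (5.89 ± 0.17, n = 3). Arrays of neighbouring groups overlapped between WT Notch tumours and KO irradiated thymocytes, between those and KO Notch tumours, between both ENU groups, and between WT ENU tumours and WT irradiated thymocytes. The range over 20 arrays was 5.59, and 55 of 19607 genes had a wider one. By array, 11 values lay above 10, 5 lay at 6.05 or lower, and the other 4, all from ENU tumours, lay between 7.05 and 9.74, so the split between arrays was not all or none.

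The same pattern was present in 15 of the 18 Slc15a2 probe sets, which are numbered in the order of their array IDs. Probe sets 1 to 15 correlated with the gene value at r from 0.972 to 0.997 over 20 arrays, a likeness that includes their own share in that value. Their difference between KO and WT in irradiated thymocytes ran from 2.56 to 7.11, with a median of 4.71. The widest was probe set 12, with 11.77, 11.81 and 11.65 in irradiated KO thymocytes, against 4.85, 4.40 and 4.65 in irradiated WT thymocytes. The narrowest was probe set 6, with 10.29, 10.66 and 10.43 in irradiated KO, against 7.61, 7.95 and 8.13 in irradiated WT. Both separated all KO arrays from all WT arrays.

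Probe sets 16, 17 and 18 did not follow the rest, with r of 0.31, -0.17 and -0.19. Probe set 18 had 8.28, 8.50 and 7.89 in irradiated KO thymocytes, against 7.82, 7.06 and 8.15 in irradiated WT, so its groups overlap. The part of the gene they cover was not analysed here. In untreated thymocytes the 15 probe sets differed between KO and WT by -1.22 to -0.36, and in labelled KO against WT ENU tumours by 0.41 to 2.41.

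**Figure D2:**
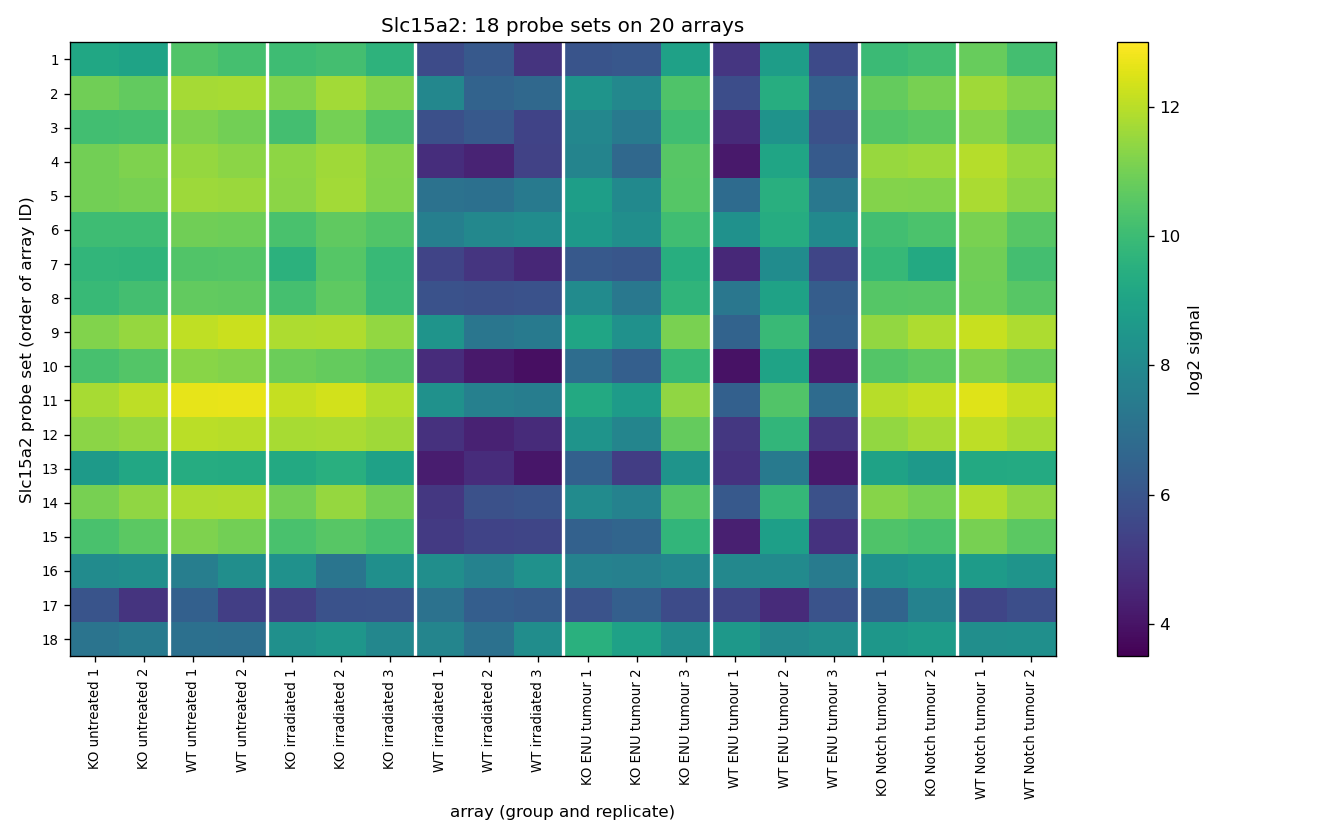
Log2 signal (colour) of the 18 Slc15a2 probe sets (rows, in the order of their array IDs) on the 20 arrays (columns, with white lines between groups). Probe sets 1 to 15 are dark together on the 3 WT irradiated arrays and on WT ENU tumours 1 and 3, while probe sets 16, 17 and 18 do not take part.

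No gene near Slc15a2 on the chromosome shared its whole pattern. Among the 5 measured protein-coding genes on each side, Pearson r with Slc15a2 over 20 arrays ran from -0.39 (Golgb1) to 0.31 (Cd86, a costimulatory ligand). Eaf2, the nearest on the right, averaged 7.72 in irradiated KO thymocytes and 7.88 in irradiated WT thymocytes. Ildr1, the nearest on the left, averaged 7.84 in irradiated KO and 7.73 in irradiated WT. Cd86 went the way of Slc15a2 in irradiated thymocytes (7.86 in KO, 7.02 in WT) and ENU tumours (8.26 in those labelled KO, 7.22 in WT). It went the other way in untreated thymocytes (8.41 in KO, 7.82 in WT) and Notch tumours (8.91 in KO, 7.13 in WT).

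Likeness was also computed against the 2429 genes whose values spanned at least 2 on the log2 scale. These correlations describe 20 arrays that share groups and a scale, and they carry no test. The highest r was that of Alox15, an arachidonate lipoxygenase, at 0.74 (0.78 over 10 thymocyte arrays, 0.72 over 10 tumour arrays). Alox15 had 9.47, 9.60 and 9.49 in irradiated KO thymocytes, against 8.07, 8.04 and 7.99 in irradiated WT thymocytes. It follows Slc15a2 there but not in untreated thymocytes, where it had 9.52 and 9.58 in KO, against 8.64 and 8.52 in WT. Next came Ddx60 (r 0.66) and Samd9l (r 0.63), both interferon-induced, and the cyclin gene Ccnd2 (r 0.63), then Arid5b (0.63), Ms4a6b, Add3, Rtp4, Cd7 and Egr2 (all 0.62). Over all other genes the highest r was 0.77, and 0 genes passed 0.8. Without the arrays KO ENU tumour 1 and KO Notch tumour 2, Alox15 had r of 0.76, Ddx60 0.72 and Cd7 0.71 over 18 arrays.

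A gene running the other way lay closer than any of these. Slc38a3, which encodes the glutamine transporter SNAT3, had r of -0.87 with Slc15a2 over 20 arrays, -0.92 over thymocytes and -0.81 over tumours. It was chosen after its values were seen, as the lowest r among the 2429 genes, where 2 of all genes lay under -0.8. Slc38a3 had 7.63, 7.69 and 7.89 in irradiated KO thymocytes, against 8.83, 9.30 and 9.07 in irradiated WT thymocytes. In untreated thymocytes it had 6.89 and 6.98 in KO, against 6.87 and 7.14 in WT. Its highest array was WT ENU tumour 1 at 9.65, where Slc15a2 was lowest at 5.34.

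**Figure D3:**
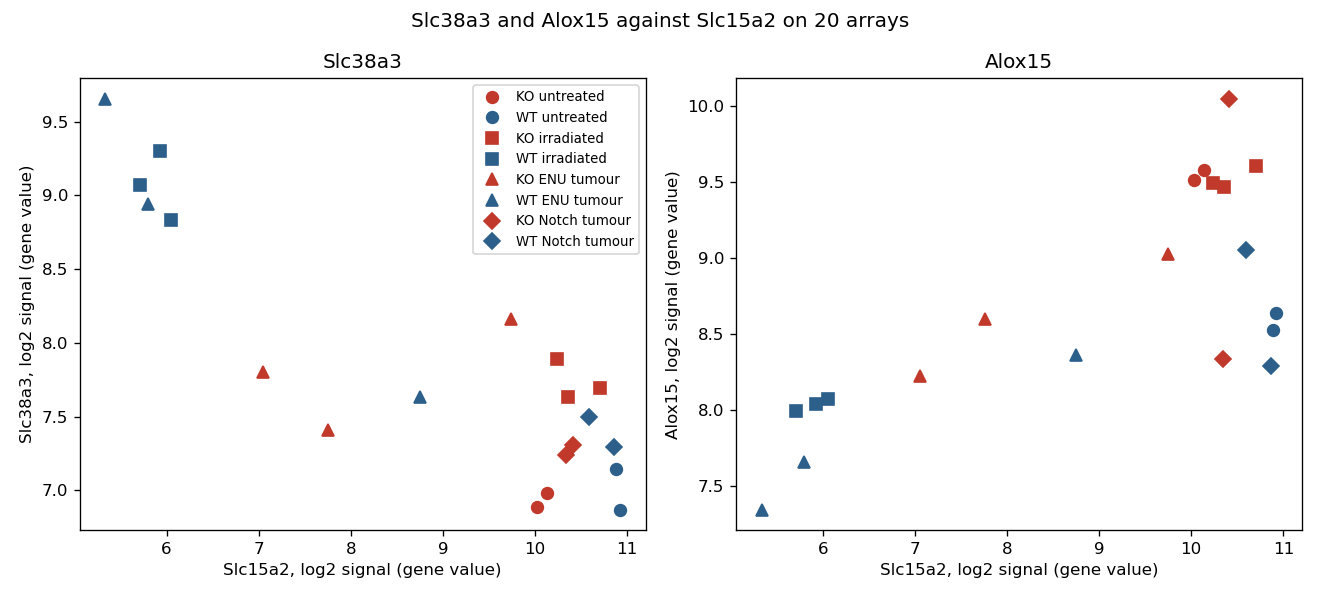
Slc38a3 (left) and Alox15 (right), as log2 signal, against Slc15a2 log2 signal on the 20 arrays, with KO in red, WT in blue and a marker shape for each setting. Slc38a3 is high on the 5 arrays where Slc15a2 is below 6.1 and low where Slc15a2 is above 10. Alox15 splits untreated KO from untreated WT thymocytes at like Slc15a2 levels.

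Slc15a1, the intestinal peptide carrier, was lower in KO than in WT thymocytes whether or not they were irradiated. Untreated KO thymocytes had 7.66 and 7.62 log2 signal, against 8.68 and 8.76 in untreated WT thymocytes. The difference was -1.08 ± 0.13 (SE, limma adjusted p = 1.59e-05). Irradiated KO thymocytes had 7.05, 7.11 and 7.03, against 8.10, 8.54 and 8.39 in irradiated WT thymocytes. That difference was -1.28 ± 0.10 (limma adjusted p = 1.28e-07). In both settings every KO array lay below every WT array.

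Slc15a1 passed the filter on low values in thymocytes only through the WT arrays, since 0 of 5 KO arrays lay above the 40th percentile of all genes that the filter uses. Its call therefore had to come with a difference, and no fold of RNA is given for it. With no filter the adjusted p was 5.51e-05 in untreated and 6.69e-07 in irradiated thymocytes (limma). With all 20 arrays in 1 fit neither call was kept (limma adjusted p = 1 and 0.778).

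Slc15a1 was lower after irradiation in both genotypes. It fell by 0.58 in irradiated against untreated KO thymocytes (difference -0.58 ± 0.12, limma adjusted p = 0.00105) and by 0.37 in irradiated against untreated WT thymocytes (difference -0.37 ± 0.12, limma adjusted p = 0.0206). Of all genes 23.7% were lower in KO and 21.7% in WT. The KO arrays all lay below the filter, at percentiles 35.2 and 33.3 untreated and 19.2 to 20.3 irradiated. The untreated and irradiated KO groups also differ in the Gfi1 probe sets that are low, and the part of that was not tested. The WT call was lost without WT irradiated 1 (limma adjusted p = 0.0642), WT untreated 1 (0.079) or WT untreated 2 (0.128). The irradiation response differed between KO and WT by -0.20 ± 0.17, which did not pass (limma adjusted p = 0.703).

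Markers of other cells also separated KO from WT thymocytes, as did some thymocyte markers. Of 14 thymocyte markers, 1 was lower in untreated KO and 5 in irradiated KO, with 0 higher. Granulocyte markers were lower in KO, 10 of 11 untreated and 8 of 11 irradiated. Without WT untreated 1 or WT untreated 2 the untreated count was 4 of the 5 that still passed the filter. The rest had thus passed it through untreated WT arrays, where they are high. Higher in KO were 11 of 16 tested macrophage and dendritic cell markers untreated and 12 of 16 irradiated, 6 of 9 B-cell markers in each setting (1 was lower in irradiated KO), 5 and 8 of 8 markers of NK and cytotoxic cells, and 4 and 3 of 5 markers of gamma delta T cells. The untreated macrophage count was 2 without KO untreated 1, and 4 without KO untreated 2 or WT untreated 2. Over all genes tested, 6.79% were higher and 5.49% lower in untreated KO, and 8.12% higher and 6.81% lower in irradiated KO.

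With irradiation, 2 of 11 granulocyte markers were higher and 1 lower in KO, and 1 was higher and 10 lower in WT. Most of these markers had passed the filter through untreated WT arrays, where they are high. A lower count in irradiated WT was thus largely set by the filter. Markers of macrophages and dendritic cells were lower with irradiation, 14 of 16 in KO and in WT. So were those of B cells, 9 of 9 in KO and 8 of 9 in WT, and of NK and cytotoxic cells, 6 of 8 in each. Of 14 thymocyte markers, 9 were lower and 1 higher in KO, and 8 lower and 0 higher in WT. Over all genes tested, 15.1% were higher and 23.7% lower with irradiation in KO, and 13% higher and 21.7% lower in WT. The part of any of these markers in the Slc15a1 values, or in those of the gene lists given later, was not tested.

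In each of the 23 Slc15a1 probe sets the KO mean was below the WT mean, in untreated and in irradiated thymocytes. Of the 13 that passed the filter, 7 were lower in untreated KO (1.73% of 111769 probe sets tested were lower) and 10 were lower in irradiated KO (2.79% were lower). Probe set 10, for example, had 8.37, 8.09 and 8.18 in irradiated KO thymocytes, against 9.95, 10.44 and 10.07 in irradiated WT thymocytes. For irradiated against untreated cells, 7 probe sets were lower in KO (14.9% of all were lower) and 2 in WT (11.8%). The probe sets held together across the 20 arrays, with 22 of 23 above r of 0.9 with the gene value, and the remaining one at 0.83. Probe sets of the same gene on the same arrays are not independent. Their counts are therefore no further evidence beside the call of the gene, which passed the filter in thymocytes only through WT arrays.

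**Figure D4:**
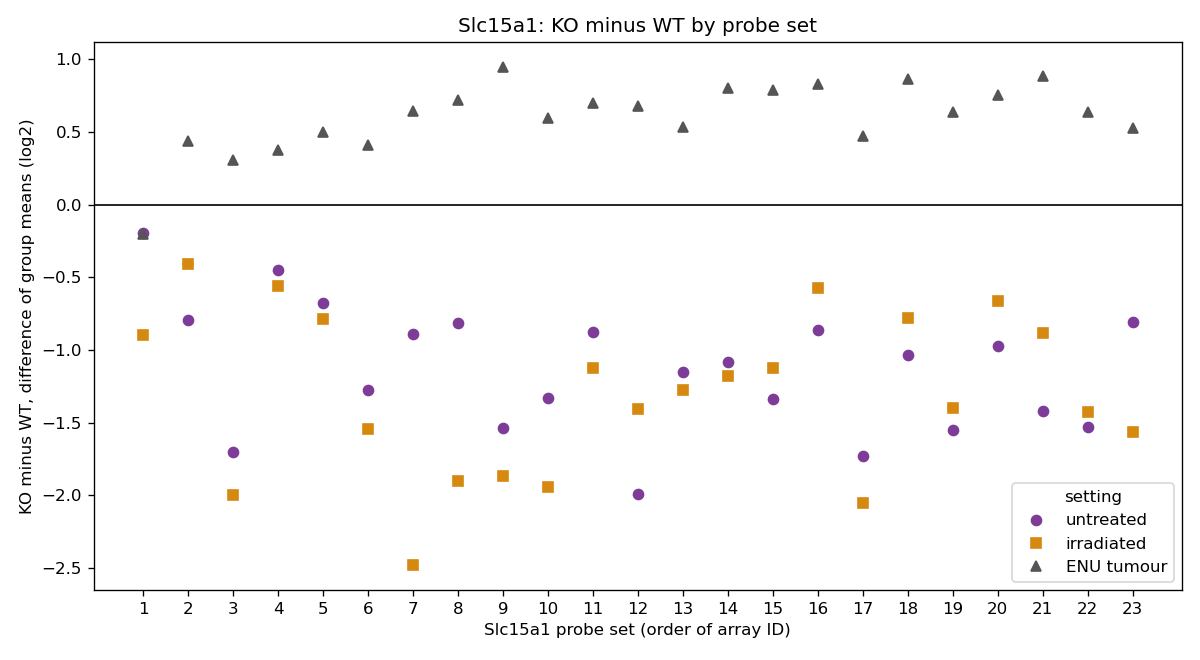
KO minus WT difference of group means (vertical axis, log2) for each of the 23 Slc15a1 probe sets (horizontal axis, in the order of their array IDs) in untreated thymocytes, irradiated thymocytes and ENU tumours. All untreated and irradiated points lie below 0, and 22 of 23 ENU points lie above it.

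Among tumours Slc15a1 took up its whole range of 4.70, and no difference between genotypes passed. ENU tumours had 8.15, 10.84 and 11.33 in those labelled KO, against 8.86, 10.47 and 8.86 in WT, with a difference of 0.71 ± 0.89 (limma adjusted p = 0.664) and overlapping arrays. Without KO ENU tumour 1 the arrays no longer overlapped and the difference was 1.68 (limma adjusted p = 0.738), and it was 0.34 and 0.097 without KO ENU tumours 2 and 3, 0.44 without WT ENU tumour 1 or 3, and 1.24 without WT ENU tumour 2. Notch tumours had 7.13 and 6.62 in KO, against 7.64 and 9.81 in WT. Both KO Notch arrays lay below both WT arrays, and the difference of -1.85 ± 1.09 did not pass (limma adjusted p = 0.818). That difference was -1.60 without KO Notch tumour 2, -0.77 without WT Notch tumour 2 and -2.93 without WT Notch tumour 1. WT Notch against WT ENU tumours gave -0.67 (limma adjusted p = 0.882), and WT ENU tumours against WT untreated thymocytes gave 0.68 (adjusted p = 0.591), which was 0.14 without WT ENU tumour 2.

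The 3 genes most like Slc15a1 over 20 arrays were Rtkn (r 0.86), Adamtsl2 (r 0.84) and Rasgrp4, an activator of RAS known from mast cells (r 0.84), of 8394 genes spanning at least 1. Rasgrp4 averaged lower in KO thymocytes too, with 8.72, 8.06 and 8.70 in irradiated KO, against 9.40, 9.49 and 9.67 in irradiated WT. Slc15a1 and Slc15a2 themselves had r of -0.28 over 20 arrays.

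Slc15a3, an endolysosomal histidine and peptide carrier, was slightly higher in untreated KO thymocytes and passed in none of the other 8 comparisons. Untreated KO thymocytes had 8.15 and 7.97, against 7.64 and 7.68 in untreated WT thymocytes. The difference was 0.40 ± 0.11 (limma adjusted p = 0.0199), with both KO arrays above both WT arrays. The gene passed the filter in thymocytes only through the untreated KO arrays, and the adjusted p with no filter was 0.0346. The call was lost with the mean of probe sets in place of the median (limma adjusted p = 0.0583), without WT untreated 1 (0.15) and without WT untreated 2 (0.0985). Without either KO array the gene no longer passed the filter. Of its 9 probe sets, 0 passed on their own there. Macrophage and dendritic cell markers had a mean of 9.46 and 9.44 in untreated KO, against 9.06 and 8.99 in untreated WT, and their part in the result was not tested.

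In irradiated thymocytes Slc15a3 had 7.72, 7.85 and 7.89 in KO, against 7.79, 7.79 and 7.80 in WT (difference 0.026, limma adjusted p = 0.905). At the probe set level 1 of 4 that passed the filter was higher in irradiated KO, by 0.93 ± 0.20 (limma adjusted p = 0.0134, 4.55% of all probe sets higher). Irradiated against untreated cells gave -0.24 in KO (adjusted p = 0.0626) and 0.14 in WT (adjusted p = 0.299), and the responses differed by -0.38 ± 0.14 (adjusted p = 0.227, limma).

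Slc15a3 was highest on the arrays with the most macrophage marker signal. KO ENU tumour 1 had 9.75 and KO Notch tumour 2 had 9.62, while the other 18 arrays lay between 7.64 and 8.64. KO ENU tumour 1 and KO Notch tumour 2 had macrophage and dendritic cell marker means of 11.2 and 10.5. KO Notch tumour 2 also had the high B-cell marker mean of 12.6. Of the macrophage list, Csf1r was 10.3 and C1qa 8.68 in KO Notch tumour 2, against 9.87 and 11.2 in KO ENU tumour 1. ENU tumours had 9.75, 8.32 and 7.98 in those labelled KO, against 8.64, 8.08 and 7.81 in WT, a difference of 0.50 ± 0.54 (limma adjusted p = 0.608) that became -0.029 without KO ENU tumour 1. Notch tumours had 7.94 and 9.62 in KO, against 7.94 and 7.78 in WT, a difference of 0.92 ± 0.66 (limma adjusted p = 0.856) that became 0.075 without KO Notch tumour 2. The part of these markers in the Slc15a3 values was not tested. WT Notch against WT ENU tumours gave -0.32 (limma adjusted p = 0.904) and WT ENU tumours against WT untreated thymocytes 0.52 (adjusted p = 0.474).

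The genes most like Slc15a3 were Gpr137b (r 0.94), the inhibitory Fc receptor gene Fcgr2b (r 0.92) and Dmxl2 (r 0.90) over 20 arrays. Without the 2 high arrays r was 0.62, 0.75 and 0.77, so much of the likeness rests on them.

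Slc15a4, which encodes the endolysosomal carrier that anchors TASL, was the steadiest member and passed in 0 of the 9 comparisons. Untreated thymocytes had 9.49 and 9.45 in KO, against 9.47 and 9.33 in WT (difference 0.071 ± 0.12, limma adjusted p = 0.813). Irradiated thymocytes had 9.22, 9.38 and 9.28 in KO, against 9.30, 9.55 and 9.29 in WT (difference -0.085 ± 0.095, limma adjusted p = 0.662). Groups overlapped in both. ENU tumours had 9.34, 9.45 and 9.65 in those labelled KO, against 9.56, 9.81 and 9.44 in WT (difference -0.13 ± 0.34, limma adjusted p = 0.849).

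On 19 arrays Slc15a4 stayed between 9.22 and 9.81, and on KO Notch tumour 2 it reached 10.87. Notch tumours had 9.29 and 10.87 in KO, against 9.37 and 9.38 in WT (difference 0.70 ± 0.42, limma adjusted p = 0.825), and without KO Notch tumour 2 the difference was -0.091. That array also had the high B-cell marker mean of 12.6, with Ms4a1, which encodes CD20, at 12.9, against 5.86 to 8.83 on the other 19 arrays. The part of B-cell RNA in the Slc15a4 value was not tested. The genes most like it, Txndc11 (r 0.93), Creld2 and Lat2 (both 0.92), fell to r of 0.50, 0.59 and 0.50 without that array and KO ENU tumour 1. At the probe set level 1 of 7 that passed the filter was lower in irradiated against untreated KO thymocytes, a share near the 14.9% over all probe sets.

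**Figure D5:**
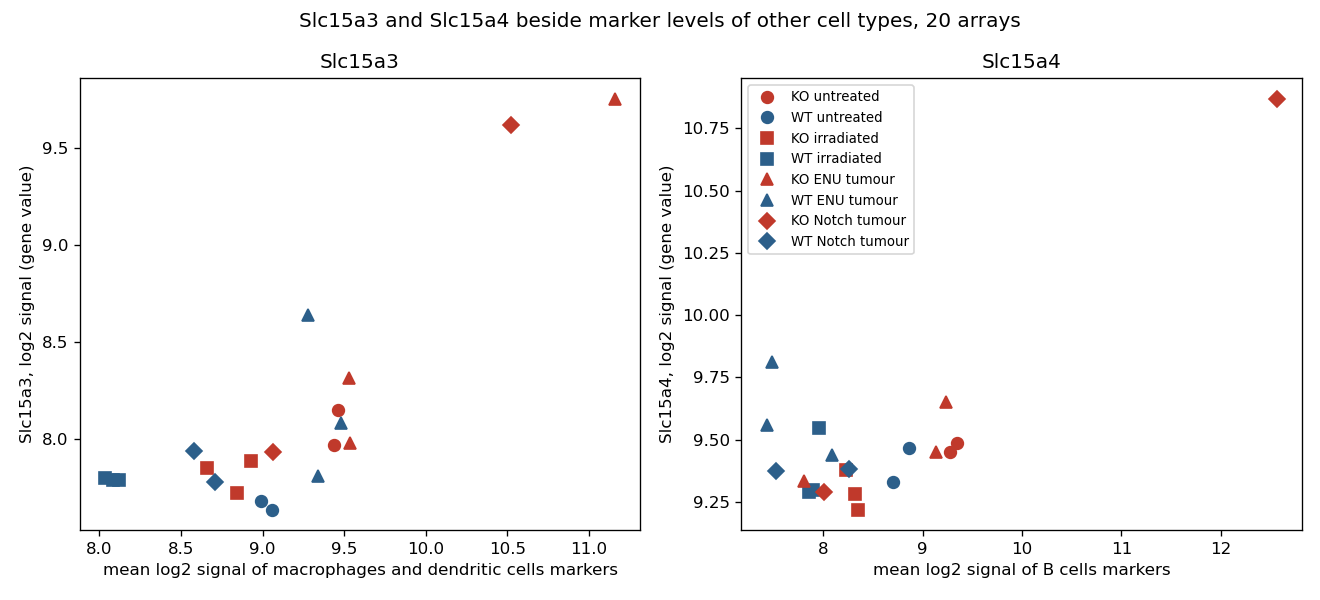
Log2 signal of Slc15a3 against the mean of macrophage and dendritic cell markers (left) and of Slc15a4 against the mean of B-cell markers (right) on the 20 arrays, with KO in red, WT in blue and a marker shape for each setting. The highest Slc15a3 values belong to KO ENU tumour 1 and KO Notch tumour 2, and KO Notch tumour 2 alone is high for Slc15a4.

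Counted over the tested members Slc15a1, Slc15a3 and Slc15a4, KO against WT called 2 of 3 in untreated thymocytes, where 12.3% of 12747 genes were called (6.79% higher and 5.49% lower), and 1 of 3 in irradiated thymocytes, where 14.9% were (8.12% higher and 6.81% lower). Irradiated against untreated cells called 1 of 3 in KO, with a background of 38.8% (15.1% higher and 23.7% lower), and 1 of 3 in WT, with a background of 34.6% (13% higher and 21.7% lower). The shares with irradiation stand near their background. Slc15a1 and Slc15a3 had passed the filter in thymocytes only through the arrays where they are high, so these counts are no evidence about the members as a group. For the difference in irradiation response 0 of 3 members were called (1.88% of genes and 0.106% of probe sets).

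In the tumour comparisons 0 members were called, on a background with almost no calls. KO against WT in ENU tumours called 0% of 13025 genes, with 1782 at an unadjusted p under 0.05 in limma and 679 called with all 20 arrays in 1 fit, and 0% of 115045 probe sets. KO against WT in Notch tumours called 0.0154% of genes and 0.00174% of probe sets, and WT Notch against WT ENU tumours called 0.023% and 0.00608%. WT ENU tumours against WT untreated thymocytes called 0 members where 20.1% of 13520 genes were called (9.87% higher and 10.2% lower) and 17.7% of probe sets. Without KO ENU tumour 1 and KO Notch tumour 2, Slc15a3 passed in that comparison as higher in WT ENU tumours. Neither array belongs to the groups compared, and the difference stayed at 0.52. Leaving them out changed the spread that the fit shares between groups, and the call rests on that. Slc15a5, the remaining family member, lay between 6.91 and 7.62 on 20 arrays and was below the filter in every fit.

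Genes that act with these carriers were counted in lists, to be read against the shares over all genes given for each comparison. Of 6 tested genes of NOD signalling, which senses the bacterial peptides that SLC15 carriers move, 2 were higher and 1 lower in untreated KO thymocytes (median 0.017, against -0.018 over all genes). In irradiated KO thymocytes 2 were higher and 0 lower (median 0.23, against -0.029). Nod1, a sensor of bacterial peptidoglycan, was higher in KO by 0.86 ± 0.12 untreated and 1.24 ± 0.10 irradiated (limma adjusted p = 7.98e-05 and 7.31e-08). Ripk2, its downstream kinase, was higher in KO by 0.56 and 0.65 (limma adjusted p = 0.0106 and 0.00046). Card9 was lower in untreated KO by a difference of -0.44 (limma adjusted p = 0.0239). Of the untreated counts, the 2 was 1 without KO untreated 1, KO untreated 2 or WT untreated 2, and the 1 was 0 without any array but WT untreated 2.

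Of 10 tested genes of endolysosomal Toll-like receptor signalling, 2 were higher and 0 lower in untreated KO (median 0.24), and 3 higher and 0 lower in irradiated KO (median 0.22). The untreated count was 0 without KO untreated 1 or 2, and 1 without WT untreated 2. The macrophage, B-cell and NK markers counted before were higher in the same KO groups. Tlr3, the receptor for double-stranded RNA, was higher in KO by 1.22 ± 0.14 untreated and 0.81 ± 0.12 irradiated (limma adjusted p = 1.56e-05 and 8.86e-05). Unc93b1, the chaperone of these receptors, was higher in untreated KO by 0.51 (limma adjusted p = 0.0266), and Irf5 in irradiated KO by 0.39 (limma adjusted p = 0.0117). With irradiation 7 of 10 were lower in KO and 6 of 10 in WT, and 1 of 10 was higher in each, against 23.7% and 21.7% of all genes lower. The KO count was 3 of 9 without KO untreated 1, and the WT count was 4 of 10 without WT untreated 1. Tlr7, a sensor of single-stranded RNA, fell by 1.75 in irradiated against untreated KO and by 1.61 in irradiated against untreated WT (limma adjusted p = 2.67e-08 and 6.3e-08). Macrophage, B-cell and NK markers were lower with irradiation too, and their part was not tested.

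Of 18 tested peptidases, which make or break down short peptides, 4 were higher and 1 lower in untreated KO (median 0.22) and 1 higher and 0 lower in irradiated KO (median 0.015). The 4 fell to 1 without KO untreated 1 or 2 and to 2 without WT untreated 2. Anpep, the surface aminopeptidase CD13, was higher in untreated KO by 0.78 ± 0.10 (limma adjusted p = 5.6e-05), and Dpp4, the surface dipeptidyl peptidase CD26, in irradiated KO by 0.46 ± 0.09 (limma adjusted p = 0.00239). With irradiation 2 peptidases were higher and 8 lower in KO, where 15.1% of all genes were higher and 23.7% lower, and 1 higher and 5 lower in WT, where 13% were higher and 21.7% lower. The lower count in KO was 5 of 17 without KO untreated 1 and 2 of 17 without KO untreated 2, and in WT 3 without WT irradiated 1 or WT untreated 2 and 2 without WT untreated 1. Anpep fell by 1.10 in irradiated against untreated KO and by 0.37 in irradiated against untreated WT, and this difference in response passed (-0.72 ± 0.13, limma adjusted p = 0.00831), but no peptidase passed there without any 1 of the 4 untreated arrays. In WT ENU tumours against WT untreated thymocytes 6 of 18 peptidases were higher and 0 lower, among them Nln, an oligopeptidase, by 1.81 ± 0.24 (limma adjusted p = 0.00025) and Lap3, a leucine aminopeptidase, by 1.69 ± 0.32 (limma adjusted p = 0.00237).

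Amino acid carriers of the lysosome included 2 of 8 lower in untreated KO and 1 of 8 lower in irradiated KO, with 0 higher in both. Slc36a4, a proton-coupled amino acid carrier, differed by -0.87 ± 0.18 in untreated KO and by -1.32 ± 0.15 in irradiated KO (limma adjusted p = 0.00304 and 4.65e-06). Slc38a9, a lysosomal arginine sensor, differed by -0.78 ± 0.14 in untreated KO (limma adjusted p = 0.00101). At the plasma membrane 3 of 14 tested carriers were higher and 1 lower in untreated KO, and 1 higher and 2 lower in irradiated KO. The 3 was 1 without any 1 of the 4 untreated arrays, and the 2 lay between 1 and 3 with an irradiated array left out. With irradiation 5 of 14 were higher and 3 lower in KO, and 5 higher and 0 lower in WT, and the lower share in KO is near the 23.7% of all genes. The higher count in KO was 2 of 13 without KO untreated 1 and 3 of 13 without KO untreated 2, and in WT it was 3 of 14 without WT untreated 1. Slc7a5, the large neutral amino acid carrier LAT1, rose by 1.09 in irradiated against untreated KO and by 1.64 in irradiated against untreated WT (limma adjusted p = 1.51e-06 and 2.09e-08). In WT ENU tumours against WT untreated thymocytes it was higher by 1.91 ± 0.25 (limma adjusted p = 0.000184), and Slc6a19, a neutral amino acid carrier of kidney and gut, differed by -3.91 ± 0.38 (limma adjusted p = 2.15e-05).

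Proton exchangers and pumps, which set the gradient that drives SLC15 carriers, were listed with PDZ scaffolds that bind carriers at the membrane. Of the 6 tested, 2 were higher in untreated KO and 2 in irradiated KO, with 0 lower. These were Slc9a7 (0.63 and 0.45) and Slc9a9 (0.46 and 0.43), exchangers of intracellular compartments, and the untreated count was 1 without KO untreated 2, WT untreated 1 or WT untreated 2. Interferon response genes had 4 of 18 higher and 1 lower in untreated KO, and 10 higher and 1 lower in irradiated KO. With irradiation 16 of 18 were lower in KO and in WT. Macrophage, B-cell and NK markers moved the same way in each of these comparisons, and their part was not tested. In WT ENU tumours against WT untreated thymocytes 12 of 19 interferon response genes were lower, and 1 without WT untreated 1, 5 without WT untreated 2, 7 without WT ENU tumour 1 and 8 without WT ENU tumour 2. For KO against WT in both tumour types, and for WT Notch against WT ENU tumours, 0 genes of these lists passed in limma. Without KO Notch tumour 1 the KO group was only KO Notch tumour 2, the array with high B-cell markers. Genes of several lists then passed, beside many other genes, so that fit is no evidence about these lists.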

How the data were processed

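The authors deposited 1 table of 20 arrays on a log2-like scale (3.37 to 15.0); background correction, normalization, summary and log base are unstated in what was available, so folds assume log2. Per the labels, RNA was amplified with a NuGEN Ovation Pico kit and labelled with biotin. Of 182058 probe sets, 167016 naming 1 gene (platform annotation, which can be old) were used. Each gene's value is the median, per array, of its probe sets centred on their 20-array means, plus the mean of those means. Genes above the 40th percentile on at least 2 arrays were tested with limma 3.58.1 in R 4.3.3 (lmFit, eBayes, Benjamini-Hochberg at 0.05 over all such genes) in fits of 10 thymocyte arrays, 10 tumour arrays, or 20 arrays for tumours against thymocytes. Scripts were tested on simulated data. The number of arrays limits the precision.

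The members and gene lists were chosen with earlier results of these data known. Named genes of a list are among the up to 4 with the smallest p of those that passed; genes named for likeness are the 10 (Slc15a2) or 3 (other members) with the highest r. Same-numbered replicates did not deviate together (irradiated KO and WT: r = 0.22, -0.036 and -0.34), so numbers were not taken as pairs. Promoters come from RefSeq (GRCm38.p6).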

Additional observations from a re-analysis of the deposited data

Results flagged for a closer look

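Among Slc15a2, Gfi1, the other members and the pathway lists, the response to irradiation differed between KO and WT thymocytes in 4 results. Cell type markers were not searched for this. Of those, granulocytes had 10 of 11 tested genes higher and 1 lower, where 1.88% of all genes were called. Most of these had passed the filter through untreated WT arrays. Macrophages and dendritic cells had 4 of 16 higher and 0 lower. Gamma delta T cells (5 tested) and NK and cytotoxic cells (8 tested) had 1 lower each. Slc15a2 differed by 5.36 in log2 signal, with irradiated WT values near the bottom of the scale, and this difference was not tested, since the values chose the gene; all KO irradiated arrays lay above both untreated KO arrays, and all WT irradiated arrays lay below both untreated WT arrays. Gfi1 itself differed by -1.57 ± 0.20 (limma adjusted p = 0.000261), where untreated and irradiated KO thymocytes are low in different Gfi1 probe sets. The surface aminopeptidase gene Anpep differed by -0.72 ± 0.13 (limma adjusted p = 0.00831), and the interferon-induced gene Oas2 by 0.55 ± 0.14 (limma adjusted p = 0.0492). No peptidase passed without any 1 of the 4 untreated arrays, and with an array left out 0 or 1 interferon response genes passed.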

How the results depend on the processing

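Over the tested members, the number called for KO against WT in untreated thymocytes was 2, and it was 1 with the mean of probe sets, 0 with all 20 arrays in 1 fit, and 1 without any 1 of its 4 arrays. With all 20 arrays in 1 fit the number was also 0 for KO against WT in irradiated thymocytes and for irradiated against untreated cells in KO and in WT, each 1 otherwise, and leaving out arrays gave 0 to 1 in WT. KO against WT in Notch tumours called 0, and 0 to 1 with an array left out, the call being Slc15a4 without KO Notch tumour 1 (limma adjusted p = 0.00815), where 1066 genes passed. There the KO group is 1 array, KO Notch tumour 2 with its high B-cell markers, assumed to vary like the other groups. WT ENU tumours against untreated thymocytes called 0. Slc15a3 passed there without KO ENU tumour 1 and KO Notch tumour 2, which are not in the groups compared, and its difference was unchanged. With the mean of probe sets Slc15a2 differed by -0.60 in untreated and 4.06 in irradiated KO against WT, by -4.34 with irradiation in WT, and by 4.67 in the response. Values that changed sign did not pass on either side, apart from that Slc15a4 call: with the mean of probe sets, Slc15a4 in untreated KO against WT was -0.035 and Slc15a3 with irradiation in WT was -0.015; Slc15a4 with irradiation in WT was 0.030 after quantile normalization, 0.0044 with the replicate block, and -0.10 to 0.047 with an array left out. Leaving out arrays gave -0.0079 to 0.075 for Slc15a3 in irradiated KO against WT, -0.029 to 0.86 for Slc15a3 in ENU tumours (also -0.029 without both arrays), -0.091 to 1.49 for Slc15a4 in Notch tumours (also -0.091 without both), and -1.75 to 0.41 for Slc15a1 in WT Notch against ENU tumours. The replicate block changed no call of a member. Over all genes, 1 fit of 20 arrays called 115 genes for untreated and 148 for irradiated KO against WT (1566 and 1903 otherwise), 772 and 548 for irradiation in KO and WT (4946 and 4413), 6 for the response (240), 679 and 184 for KO against WT in ENU and Notch tumours (0 and 2), and 270 for WT Notch against ENU tumours (3). Leaving out arrays gave 716 to 859 for untreated KO against WT, 2678 to 4724 and 2111 to 5128 for irradiation in KO and WT, 61 to 299 for the response, 0 to 4 in ENU and 0 to 1066 in Notch tumours, 0 to 15 between them, and 726 to 4490 for WT ENU tumours against untreated thymocytes (2713). KO against WT in Notch tumours called 6 after quantile normalization, and 0 with the replicate block. The causes were not tested. Groups of 2 or 3 arrays and values near background limit the low members.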
